A study of Mus musculus with 4 samples.

Results

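The 4 miRNAs described here, mmu-miR-10a, mmu-miR-10b, mmu-miR-196a and mmu-miR-196b, are the members of the miR-10 and miR-196 families that lie inside the mouse Hox gene clusters. They were chosen by name from the 567 mouse miRNAs on the arrays. RNA of purified Sertoli cells, the somatic cells that nurse the germ cells of the testis, was hybridized to 4 single-colour Agilent miRNA arrays on 1 slide, each with RNA pooled from 5 to 7 B6129 male mice aged 5 to 7 weeks. Sham mice (1 array) carried a Silastic implant and received saline. Flut+Acy mice (2 arrays) received flutamide, which blocks the androgen receptor, through the implant, and acyline, an antagonist of gonadotropin-releasing hormone, at 20 mg/kg. Flut+Acy+T mice (1 array) received the same flutamide and acyline together with testosterone, so that the add-back group carried the receptor blocker as well. The labels do not say whether the Flut+Acy pair came from separate pools of mice, and neither Sham nor the add-back group was replicated. All p-values therefore measure differences against the spread of 1 pair, which may be technical, and take the lone arrays to vary as that pair did. The limma method draws this spread towards a value estimated from all miRNAs fitted.

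Hox genes encode the transcription factors that set position along the body axis, and each Hox cluster carries miRNA genes between its protein-coding genes. The miR-10 and miR-196 families are known for repressing Hox transcripts, miR-196 through a nearly perfect match to the Hoxb8 transcript, and their own genes are transcribed in domains that resemble those of the neighbouring Hox genes. A mature miRNA finds its targets mainly through its seed, the bases from position 2 to 8 counted from the 5′ end. Members with the same seed are thus predicted to act on largely the same transcripts.

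In the RefSeq annotation (GRCm38.p6) Mir10a lies beside Hoxb4 (chr11:96317186-96317208, plus strand, mature strand) and Mir10b beside Hoxd4 (chr2:74726074-74726096, plus strand). The same mature miR-196a comes from 2 genes, Mir196a-1 between Hoxb13 and Hoxb9 (chr11:96265187-96265208, plus strand) and Mir196a-2 between Hoxc10 and Hoxc9 (chr15:102973365-102973386, plus strand). Mir196b lies between Hoxa9 and Hoxa10 (chr6:52230129-52230150, minus strand). The signal of miR-196a cannot be divided between its genes, while each of the other 3 miRNAs has 1 gene. The mature sequences of all 4 members are shown because they set which transcripts the miRNAs can pair with and how well the arrays can tell them apart, with the seed in capitals.
mmu-miR-10a: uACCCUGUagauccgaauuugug
mmu-miR-10b: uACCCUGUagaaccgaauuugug
mmu-miR-196a: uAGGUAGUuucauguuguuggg
mmu-miR-196b: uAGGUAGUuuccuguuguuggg

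The members of each pair have 1 seed, ACCCUGU for miR-10 and AGGUAGU for miR-196. miR-10a and miR-10b are identical at 22 of 23 bases and differ by U12A, counted from 1 at the 5′ end with the base of miR-10a first. miR-196a and miR-196b are identical at 21 of 22 bases and differ by A12C on the same count. Each array carried 20 spots per member, from 2 probe designs of 20 and 21 bases for miR-10a and miR-10b, 4 designs of 19 to 22 bases for miR-196a and 2 designs of 19 and 20 bases for miR-196b. How far a probe takes up the other member of its pair was not measured.

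Close relatives outside the Hox clusters are shown for the stretches that they have in common with the members.
mmu-miR-100: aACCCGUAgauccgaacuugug
mmu-let-7a: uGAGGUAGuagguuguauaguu

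miR-100 has another seed than miR-10 but shares an unbroken stretch of 11 bases with miR-10a, from base 7 of miR-10a, which takes in the base at position 12. With miR-10b the longest common stretch is 5 bases. The 7 seed letters of miR-196 occur in let-7a and miR-98 displaced by 1 base, so that the seeds of the 2 families overlap without being the same.

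Before the results, 1 property of the arrays has to be stated. On Flut+Acy+T the negative-control spots, which match no miRNA, had a standard deviation of 1326 units against 2.72 to 7.45 units on the other 3 arrays, 535 of 12493 spots were marked non-uniform against 0 to 4, and 102 of 567 miRNAs were detected against 193 to 275. The negative-control spots had a median of 97.1 units there and of 1.76 to 4.05 units elsewhere, and a 95th percentile of 3100 units against 5.65 to 10.1 units. The summed signal of the 567 miRNAs was 2.41 and 2.79 times that of Sham for the Flut+Acy pair and 3.48 times for the add-back array. Every rise on Flut+Acy+T given here rests on this array, and what part its background had in those rises was not tested. The errors that the scanner assigned on it equal 0.35 for miR-10a, 0.14 for miR-10b, 0.24 for miR-196a and 0.24 for miR-196b on the log2 scale, and the p-values do not include them.

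All 4 members were detected on all 4 arrays, as were 76 of the 567 miRNAs. The total signals below are in scanner units with the error that the scanner software assigned to each, before any normalization. miR-10a gave 34.3 ± 3.67 on Sham, 74.2 ± 6.47 and 99.4 ± 8.62 for the Flut+Acy pair and 539 ± 131 with testosterone added back. miR-10b gave 645 ± 52.6 on Sham, 1133 ± 93.2 and 1340 ± 108 for the Flut+Acy pair and 2462 ± 233 on Flut+Acy+T. For both, the Flut+Acy pair lay above Sham and Flut+Acy+T lay highest.

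miR-196a followed the same order, with 23.2 ± 2.19 on Sham, 41.2 ± 2.98 and 55.2 ± 4.05 for the Flut+Acy pair and 577 ± 94.0 on Flut+Acy+T. miR-196b did not, with 11.5 ± 2.64 on Sham, 8.61 ± 2.73 and 18.1 ± 4.10 for the Flut+Acy pair and 855 ± 140 on Flut+Acy+T. Sham thus fell between the Flut+Acy arrays for miR-196b. On these 3 arrays the miR-196b signal was 3.15 to 4.41 times its error.

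Set against the array totals, the raw signals gave another order. Relative to Sham, miR-10a was 2.16-fold and 2.90-fold on the Flut+Acy arrays, miR-10b 1.76-fold and 2.08-fold, miR-196a 1.78-fold and 2.38-fold and miR-196b 0.751-fold and 1.58-fold. Only miR-10a, on Flut+Acy replicate 2, exceeded the rise of its array's summed signal (2.79-fold). On Flut+Acy+T, where the sum was 3.48 times Sham, miR-10b was 3.81-fold, miR-10a 15.7-fold, miR-196a 24.8-fold and miR-196b 74.6-fold.

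**Figure D1:**
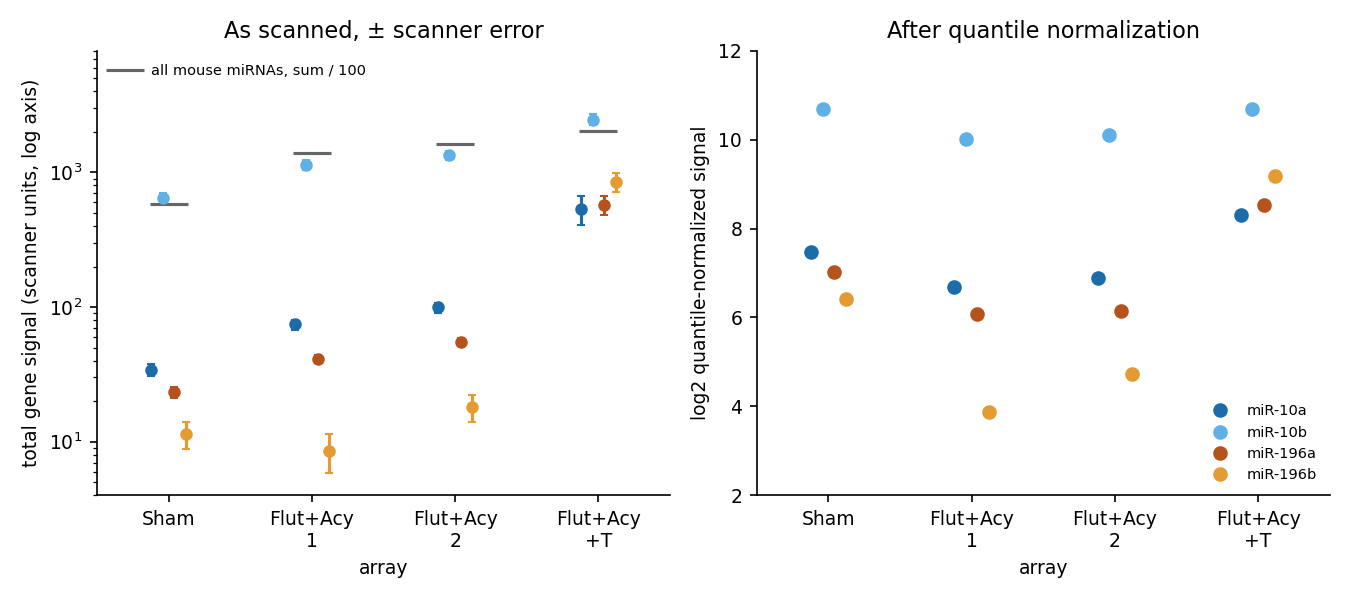
Levels of the 4 miRNAs by array. Left, total gene signal in scanner units on a log axis with the scanner's error as bars, and as grey dashes the summed signal of all 567 miRNAs divided by 100; right, log2 quantile-normalized signal of the same arrays. Before normalization 3 of the 4 members lie higher on Flut+Acy than on Sham, and after it all 4 lie lower, while Flut+Acy+T is highest for all 4 before normalization and for 3 of the 4 after it.

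Quantile normalization, the procedure named in the methods, gives every array the same distribution of signals, so that a normalized value depends on a miRNA's rank on its array. miR-10b ranked 24 of 567 on Sham, 33 and 31 in the Flut+Acy pair, and again 24 with add-back. miR-10a ranked 103, then 140 and 129, then 78. miR-196a moved from 123 to 173 and 169 and then to 71, and miR-196b from 158 to 258 and 234 and then to 55. In the Flut+Acy pair all 4 stood lower in the order than they did on Sham, and 3 of the 4 stood higher on Flut+Acy+T than on any other array.

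The first comparison asks which miRNAs differ when androgen action is withdrawn. After normalization, miR-10b was at log2 10.69 on Sham, while the Flut+Acy arrays gave 10.02 and 10.11. It fell by 0.62 on the log2 scale (standard error 0.06, limma adjusted p = 0.0485), a fold of 0.649. miR-196a was at 7.02 on Sham, while the Flut+Acy arrays gave 6.09 and 6.14. It fell by 0.90 (standard error 0.04, limma adjusted p = 0.0236), a fold of 0.536, and for both miRNAs the Flut+Acy pair was tight and lay below Sham.

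miR-10a was at 7.46 on Sham against 6.68 and 6.88 in the Flut+Acy pair, a log2 difference of -0.68 with a standard error of 0.15 that was not called (adjusted p = 0.107 in limma). miR-196b was at 6.42 on Sham against 3.88 and 4.73 in the Flut+Acy pair, and its log2 difference of -2.11, with a standard error of 0.61, was not called either (adjusted p = 0.151 in limma). The Flut+Acy arrays were 0.85 apart for miR-196b and 0.06 apart for miR-196a, so the member with the largest difference also had the widest pair.

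Over all 298 miRNAs tested, 28.5% were called lower in Flut+Acy, against 2 of the 4 members. Among the 76 miRNAs detected on all arrays, 65.8% were lower in Flut+Acy by any amount, against 4 of 4 members, and 10.5% were lower by at least 2-fold, against 1 of 4. The median log2 difference was -0.30 over the 76 and -0.79 over the members. miR-196b had the lowest difference of the 76, miR-196a the 12th lowest, miR-10a the 22nd and miR-10b the 27th. The fall of miR-10b and the position of miR-10a were thus not far from the middle of the detected miRNAs.

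The direction of these differences rests on normalization. Without it, the log2 differences between Flut+Acy and Sham were 1.32 for miR-10a, 0.93 for miR-10b, 1.04 for miR-196a and 0.12 for miR-196b, with a median of 1.24 over the 76 miRNAs. Relative to that median, miR-196b stood at -1.11, miR-10b at -0.30, miR-196a at -0.20 and miR-10a at 0.09. miR-196b was therefore lower than the middle of the detected miRNAs under scaling by a constant and under quantile normalization (-1.81). With normexp background correction before quantile normalization it stood at -0.20, beside -0.21 for miR-10b. For miR-10a the sign relative to the median differed between scaling by a constant and quantile normalization (-0.38). In the authors' deposited table miR-196a stood above the median, at 0.12, and miR-196b below it, at -1.69.

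The second comparison asks what testosterone add-back did to mice under the same flutamide and acyline. On the add-back array all 4 members lay above both Flut+Acy arrays, and limma called all 4, against 21.5% of the 298 miRNAs called higher. The members were detected on all arrays, whereas the 298 include miRNAs not detected on Flut+Acy+T. The median log2 difference was -1.08 over the 298 and 0.13 over the 76. miR-196b went from 3.88 and 4.73 to 9.19, which is 4.88 on the log2 scale (limma adjusted p = 0.0472, standard error 0.61). This was the largest difference among the 76 miRNAs detected on all arrays, but with 1 and 2 of 20 spots well above background on the Flut+Acy arrays its size is uncertain. miR-196a rose from 6.09 and 6.14 to 8.53, by 2.42 (standard error 0.04, limma adjusted p = 0.00652) or 5.34-fold.

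The miR-10 pair rose less. miR-10a went from 6.68 and 6.88 to 8.30, which is 1.52 on the log2 scale (limma adjusted p = 0.0343, standard error 0.15) or 2.87-fold. miR-10b went from 10.02 and 10.11 to 10.69, which is 0.62 on the log2 scale (limma adjusted p = 0.0365, standard error 0.06) or 1.54-fold. At least 2-fold rises were found for 3 of the 4 members and for 14.5% of the 76 miRNAs, and 57.9% of the 76 were higher by any amount. The median over the members was 1.97 and that over the 76 was 0.13.

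The third comparison sets Flut+Acy+T against Sham and asks whether add-back brought a miRNA back to its control level. Here the members parted. miR-10b had the same normalized value on both arrays, since it held the same rank, and its log2 difference was 0.00 (standard error 0.07). This depended on the scaling, with -1.88 under the 75th percentile over all mouse miRNAs (limma adjusted p = 0.00863) and 1.93 without normalization (limma adjusted p = 0.0113). The 20-base probe design of miR-10b alone, ranked against the total signals of the other miRNAs, gave -0.60 (limma adjusted p = 0.0266). miR-10a stood 0.84 above Sham (standard error 0.17, limma adjusted p = 0.0979) and miR-196b 2.77 above it (standard error 0.70, adjusted p = 0.129 in limma). Neither was called. miR-196a was 1.52 above Sham (standard error 0.05, limma adjusted p = 0.0131), or 2.86-fold, and was the 1 member called, against 17.4% of the 298 miRNAs called higher. That standard error is smaller than the error that the scanner assigned to miR-196a on Flut+Acy+T alone (0.24 on the log2 scale), and each side of the comparison is 1 array, so the call has no replicate check.

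Among the 76 miRNAs, 39.5% were higher on Flut+Acy+T than on Sham by any amount, against 3 of 4 members, and 14.5% by at least 2-fold, against 2 of 4. The difference of miR-196b was the 3rd highest of the 76 and that of miR-196a the 7th highest, while miR-10b stood near the median of -0.03. The median over the 298, which include miRNAs not detected on Flut+Acy+T, was -0.47. All 3 comparisons draw on the same few arrays, the first and second on the same Flut+Acy pair, so that a low Flut+Acy value enters both with opposite signs.

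**Figure D2:**
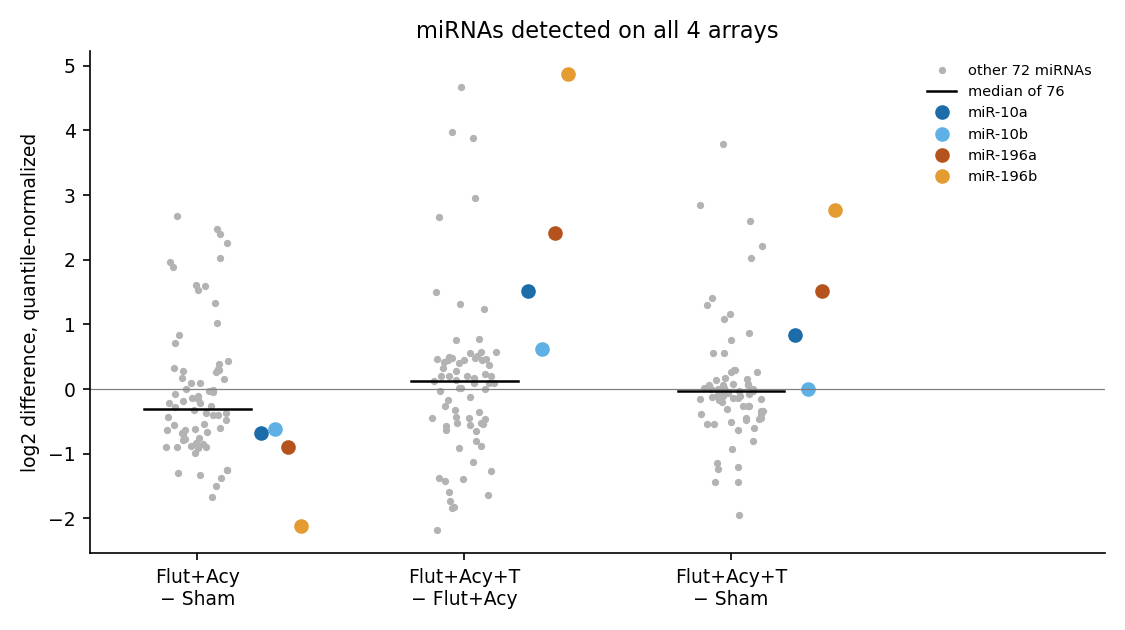
Log2 differences of quantile-normalized signal (y axis) in the 3 comparisons (x axis) for the 76 miRNAs detected on all 4 arrays, with the 4 members as coloured points, the other 72 as grey points and the median of the 76 as a black line. miR-196b is the lowest point in Flut+Acy against Sham (-2.11) and the highest in Flut+Acy+T against Flut+Acy (4.88), and miR-10b lies at 0.00 in Flut+Acy+T against Sham.

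The members of each pair of near-identical sequences gave the following values side by side. Between Flut+Acy and Sham, miR-10b and miR-10a differed in their log2 difference by 0.06, less than the gap of 0.20 between the Flut+Acy arrays for miR-10a. In the comparison of Flut+Acy+T with Flut+Acy the log2 difference of miR-10b was smaller than that of miR-10a by 0.90. For miR-196, the difference of miR-196b exceeded that of miR-196a by 2.46 in the same comparison and was lower between Flut+Acy and Sham (a gap of -1.21). These contrasts within a pair were not tested.

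Single spots show how firmly each value stands. On Sham, 20 of 20 spots of miR-10a and of miR-10b, 16 of miR-196a and 11 of miR-196b lay above the 95th percentile of the negative-control spots. In the Flut+Acy pair the count was 20 of 20 for miR-10a, miR-10b and miR-196a, and 9 and 13 of 20 for miR-196b. On Flut+Acy+T, with its wide background, 2 of 20 spots of miR-10b and 0 of 20 of each of the other 3 did so, although the scanner software called all 4 miRNAs detected.

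The scanner's own flag gave a related picture. Spots well above background numbered 20 of 20 for miR-10b on every array. For miR-10a they were 15 of 20 on Sham, 20 on each Flut+Acy array and 5 with add-back, and for miR-196a 15 on each of the first 3 arrays and 2 with add-back. miR-196b had 6 of 20 on Sham, 1 and 2 in the Flut+Acy pair and 8 with add-back, so its Flut+Acy level was near background. Non-uniform spots were marked on Flut+Acy+T alone among the spots of the members, 3 of 20 for miR-10a, 0 for miR-10b, 5 for miR-196a and 6 for miR-196b.

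The spots of 1 miRNA spread widely on Flut+Acy+T. They ran from 50.2 to 1252 units with a median of 394 for miR-10a, from 104 to 1460 with a median of 403 for miR-196a, and from 213 to 1219 with a median of 612 for miR-196b. The highest miR-196b spot was at 22.1 units on Sham and at 23.4 and 21.4 units in the Flut+Acy pair, on arrays whose negative-control spots were also far lower. For miR-10b the spots ran from 784 to 3238 units on Flut+Acy+T and from 165 to 1157 on Sham. With the median of the spots not marked as outliers in place of the total signal, the log2 difference between Flut+Acy+T and Flut+Acy was 5.18 for miR-196b, 2.46 for miR-196a, 1.39 for miR-10a and 0.66 for miR-10b.

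**Figure D3:**
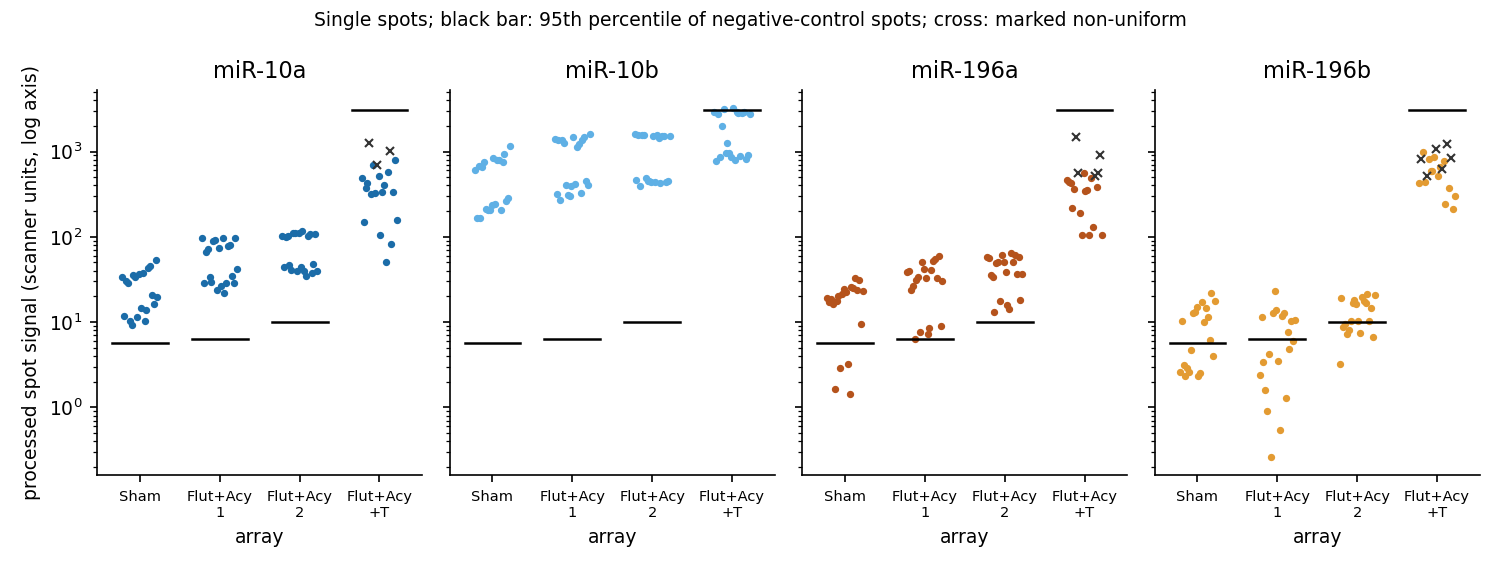
Processed signal of every spot of each member (y axis, scanner units, log axis) on the 4 arrays (x axis). Points are spots, crosses are spots marked non-uniform and black bars are the 95th percentile of the negative-control spots of that array, which is 3100 units on Flut+Acy+T and 5.65 to 10.1 units elsewhere; on Flut+Acy+T 2 spots of miR-10b lie above the bar.

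The probe designs were then read 1 at a time, each a part of a total ranked against the totals of the other miRNAs. For miR-10a they gave log2 differences between Flut+Acy+T and Flut+Acy of 0.85 for the 20-base and 1.08 for the 21-base design, both below the 1.52 of the total signal. For miR-196b they gave 5.05 for the 19-base design, whose Flut+Acy values were both floored, and 4.46 for the 20-base design. The designs of miR-196a gave 1.17, 1.83 and 0.87 for 20, 21 and 22 bases. The 19-base design was at the floor on Sham and on both Flut+Acy arrays and stood 3.18 above the floor on Flut+Acy+T. Against Sham, the other 3 designs disagreed in sign after this ranking, with 0.81 for 21 bases, -0.43 for 20 bases and -0.18 for 22 bases. The call of miR-196a above Sham therefore did not appear in all of its probes on that scale. Before normalization these designs went from 6.90 to 97.7 ± 44.8 units (20 bases), from 6.94 to 210 ± 50.6 (21 bases) and from 8.62 to 142 ± 46.2 (22 bases). The summed signal of all miRNAs on Flut+Acy+T was 3.48 times that of Sham.

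The other processing alternatives left some results standing and turned others. The rise of miR-196b between Flut+Acy and Flut+Acy+T ran from 2.07 to 6.10 and that of miR-196a from 0.87 to 3.60, with no change of sign under any alternative. All of these alternatives read the same Flut+Acy+T array, so the constant sign is no check on that array. For miR-10a the values ran from -0.99 to 2.65 and for miR-10b from -0.63 to 1.00. The negative value of miR-10a came from the authors' deposited table, in which miR-10a stood at 22.2 units on Sham, 11.1 and 14.5 in the Flut+Acy pair and 6.39 with add-back. The table and the scanner output thus place miR-10a on Flut+Acy+T on opposite sides of the other arrays.

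**Figure D4:**
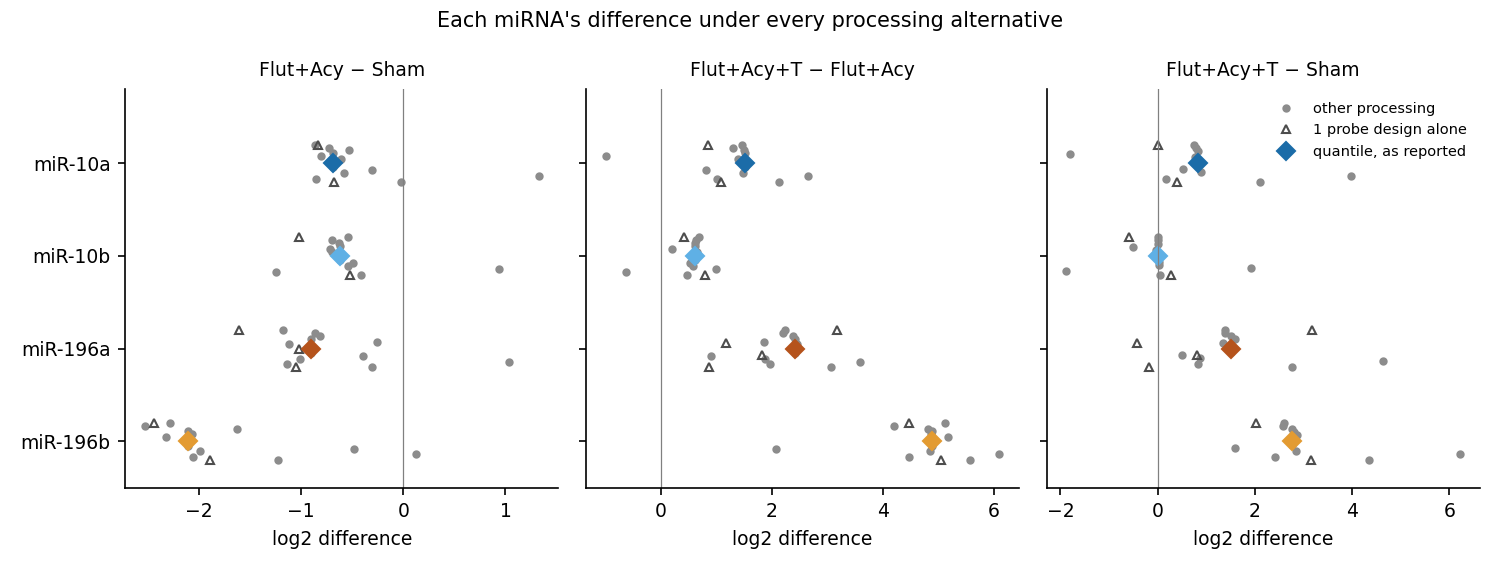
Log2 difference (x axis) of each member (rows) in the 3 comparisons (panels) under the reported processing (coloured diamonds), other processing (grey points) and single probe designs (triangles). For miR-196b every value in the middle and right panels lies above 0, and in the left panel 1 value, without normalization (0.12), does.

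Few other products of the Hox clusters were measurable. The array carried 5 further products, the opposite strands miR-10a*, miR-10b* and miR-196a*, and miR-615-3p and miR-615-5p, which come from the Hoxc cluster. Of these 5, 4 were detected on no array. miR-615-3p was not detected on Sham (0.726 units) or on Flut+Acy replicate 1 (-0.189 units), was detected on Flut+Acy replicate 2 (5.53 units) and gave 619 units on Flut+Acy+T. Its normalized value lay at or below the floor on the first 3 arrays, so neither a fold nor a p is given.

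The relatives of miR-10 outside the Hox clusters are miR-99a, miR-99b and miR-100. miR-99a fell by 0.84 in Flut+Acy (limma adjusted p = 0.00686) and rose by 0.20 on Flut+Acy+T (limma adjusted p = 0.0114). miR-100, which has the long stretch in common with miR-10a, fell by 0.64 in Flut+Acy (limma adjusted p = 0.0086) and by a further 0.16 on Flut+Acy+T (log2 difference -0.16, limma adjusted p = 0.0141), where miR-10a rose by 1.52. Quantile normalization gave miR-99a 959 units on both Flut+Acy arrays and miR-100 263 units on both. The p-values of these 2 miRNAs thus hold no spread of their own and rest on limma's estimate over all miRNAs. miR-99b was not detected on Flut+Acy+T. Of the 3, 2 were called lower in Flut+Acy (28.5% of the 298 miRNAs were). From Flut+Acy to Flut+Acy+T, 1 was called higher and 2 lower, where 53.7% of the 298 were called lower.

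The seed letters of miR-196 occur, displaced by 1 base, in 8 of the 9 let-7 and miR-98 members, let-7e being the exception. Of the 9, 4 were called lower in Flut+Acy than in Sham and none higher, against 28.5% lower and 25.5% higher of the 298 miRNAs. Their log2 differences ran from -0.69 to 0.31 with a median of -0.37. From Flut+Acy to Flut+Acy+T they ran from -1.26 to 0.56 with a median of 0.20. Here 3 were called higher and 2 lower, against 21.5% higher and 53.7% lower of the 298. The rises of miR-196a (2.42) and miR-196b (4.88) lay outside this range.

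The miRNAs nearest to each member were found from the pair of log2 differences, Flut+Acy minus Sham and Flut+Acy+T minus Flut+Acy, by Euclidean distance over the other 75 miRNAs detected on all arrays. For miR-10b they were miR-27a at a distance of 0.05, let-7c at 0.09 and miR-24 at 0.13, where the median distance was 1.13. miR-10a was nearest to miR-199b* (0.60), miR-199a-5p (0.75) and miR-124 (0.81), with a median of 1.67. miR-196a was nearest to miR-181b (0.43), miR-29c* (0.53) and miR-10a (0.92), with a median of 2.51. For miR-196b they were miR-181d (1.10), miR-468 (1.16) and miR-328 (1.24), with a median of 5.08.

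The partners of miR-10b differed from it by little in both comparisons, whereas no miRNA lay within 1 log2 unit of miR-196b. The differences of miR-181d were -1.66 and 3.88 and those of miR-328 were -0.89 and 4.68, beside -2.11 and 4.88 for miR-196b. The points share all 4 arrays and 1 normalization, and both coordinates share the Flut+Acy pair.

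Markers of gonadal somatic cells, which include Sertoli cells, and of other cell types moved between the same arrays. In the pools, fewer cells of a type and less miRNA per cell cannot be told apart. miR-202-3p, a miRNA of gonadal somatic cells, was detected on Sham and Flut+Acy at normalized signals of 404, 321 and 304 units but not on Flut+Acy+T, and miR-202-5p was detected on the Flut+Acy arrays alone. The summed normalized signal of 7 miRNAs of spermatocytes and spermatids was 1678 units on Sham, 7151 and 6013 for the Flut+Acy pair and 2480 with add-back, with 3 of the 5 detected called higher in Flut+Acy, against 25.5% of the 298 miRNAs, and 0 lower. From Flut+Acy to Flut+Acy+T, 3 of the 5 were called lower, against 53.7% of the 298 miRNAs, and miR-34b-3p was called higher (log2 difference 2.26, limma adjusted p = 0.00519).

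The summed signal of 6 muscle and peritubular miRNAs was 5142 units on Sham, 2717 and 2860 for the Flut+Acy pair and 3211 with add-back. In Flut+Acy 5 of the 5 detected were called lower, against 28.5% of the 298 miRNAs. From Flut+Acy to Flut+Acy+T, 0 of 5 were called higher (21.5% of the 298 miRNAs were) and 3 of 5 lower (53.7% were). The summed signal of 6 blood miRNAs was 1038 units on Sham, 516 and 502 for the Flut+Acy pair and 359 with add-back. In Flut+Acy 3 of 5 were called lower, against the same 28.5%. None of the 6 was detected on Flut+Acy+T, where 102 of the 567 miRNAs were detected. The 2 endothelial miRNAs summed to 1647, 2062, 1938 and 3279 units in the same order of arrays. That sum is mostly miR-126-3p, and miR-126-5p was called lower in Flut+Acy than in Sham (log2 difference -0.65, limma adjusted p = 0.0324) and was not detected on Flut+Acy+T. What part these cell types had in the differences of the 4 members was not tested, and protein-coding markers of Sertoli cells cannot be read on these arrays.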

How the data were processed

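The authors deposited Agilent Feature Extraction (9.5.3.1) output with spot and total gene intensities on a linear scale, not normalized between arrays, and detection and outlier flags. They also deposited a table of intensities, by the methods quantile-normalized in MATLAB, with column medians of 2.32, 3.36, 3.05 and 3.06 units. How its spots were combined is not stated in the sources used here, and it served as an alternative. Total gene signals of 567 mouse miRNAs were quantile-normalized, given a floor of 5.46 units (each array's lowest normalized signal of a detected miRNA, then the median) and put on a log2 scale. limma 3.58.1 (R 4.3.3) fitted the 3 groups over 298 miRNAs with a detection on any array, with 1 residual degree of freedom and Benjamini-Hochberg adjustment at 0.05. The fit was tested on simulated data in which all arrays varied alike, which does not cover an array with a background as wide as that of Flut+Acy+T. Lone arrays were assumed to vary like the Flut+Acy pair, and the number of arrays limits the precision. Named miRNAs were the 4 members, the 3 nearest to each by pattern, and lists of relatives and cell type markers. The members and lists were chosen with earlier results of these data known. Sequences are RefSeq's (GRCm38.p6). Alternatives covered scaling, background correction, spot summaries, detection filter, floor, single probes, left-out arrays and, from the methods, a single-factor analysis of variance.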

Additional observations from a re-analysis of the deposited data

How the results depend on the processing

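No paired analysis was possible because the Flut+Acy arrays alone carry replicate numbers. Without normalization between arrays, Flut+Acy minus Sham turned to 1.32 (miR-10a, adjusted p = 0.0334), 0.93 (miR-10b, adjusted p = 0.0406), 1.04 (miR-196a, adjusted p = 0.0533) and 0.12 (miR-196b, adjusted p = 0.869) in limma. In the deposited table, miR-10a was at -0.99 for Flut+Acy+T minus Flut+Acy and -1.79 for Flut+Acy+T minus Sham. With the 75th percentile over all mouse miRNAs, miR-10b was at -0.63 for Flut+Acy+T minus Flut+Acy (limma adjusted p = 0.0219). Single probes, ranked against the total signals of the other miRNAs, gave miR-196a -0.18 and -0.43 for Flut+Acy+T minus Sham.

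Of the 2 members that limma called lower in Flut+Acy than in Sham, the count was 0 with the 75th percentile over the always-detected miRNAs, without normalization, without a detection filter, in the deposited table and with the methods' single-factor analysis of variance, and 1 with processed spots, normexp, medians of unmarked spots or without the Flut+Acy+T array, where miR-10b lost its call (adjusted p = 0.0655). At 2-fold, 1 member was lower, and this was 3 with the 75th percentile over all miRNAs, 2 with processed spots, medians of unmarked spots or without the Flut+Acy+T array, and 0 without normalization or with normexp. The members that limma called higher on Flut+Acy+T than on Flut+Acy numbered 4. This became 3 with either 75th percentile, with normexp and with medians of unmarked spots. The member lost in these settings was miR-10b, which turned to -0.63 with the 75th percentile over all miRNAs. With only the always-detected miRNAs fitted, 3 stayed called and miR-196b lost its call (limma adjusted p = 0.0592). Processed spots and the deposited table each left 2 called. Only miR-196a stayed called without a detection filter and with the analysis of variance. At 2-fold, 3 members were higher, and this became 1 with normexp and 2 in the deposited table. Against Sham, the 1 member called became 3 with the 75th percentile over the always-detected miRNAs, 4 without normalization, 2 with normexp, and 0 with the 75th percentile over all miRNAs, without a detection filter, in the deposited table and with the analysis of variance; the 2 at 2-fold became 4 without normalization, 3 with the 75th percentile over the always-detected miRNAs and 1 with the 75th percentile over all miRNAs, processed spots or normexp. Leaving out either Flut+Acy array gave no test and kept the 2-fold counts at 1, 3 and 2. The alternatives without the Sham or the Flut+Acy+T array and with medians of unmarked spots were chosen after seeing the data. The cause of these changes was not tested. These counts are given without the share of all miRNAs called under each alternative. Without normalization, Flut+Acy+T minus Sham had a median of 1.92 over the 76 miRNAs, and miR-10b stood at 1.93.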
